A study of Mus musculus with 60 samples.

Results

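The genes described here are 36 genes commonly used as markers of white adipocytes, the lipid-storing cells that make up most of the mammary fat pad. They were chosen by name, and a gene counted as measured where the annotation of the arrays gave at least 1 probe set to that gene symbol and no other. By this rule 31 of the 36 were measured, and all 31 passed the filter on dim signals, among 12232 genes tested in all. Cfd, Acsl1, Dgat2, Plin1 and Adrb3 had no such probe set and are not described further. The 31 genes had 55 probe sets, of which 49 were tested. Each gene is given by 1 representative probe set, on array A for all genes but Agpat2, Cav2 and Pde3b, which are on array B.

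RNA was taken from mammary glands of ovariectomized mice, a model in which the ovarian hormones are removed and given back by injection. All 20 animals had been ovariectomized, and each received daily injections into the peritoneal cavity for 4 days. The vehicle group (V, 4 animals) received 100 µl sesame oil. The estrogen group (E, 4 animals) received 2 µg 17-beta-estrogen, the progesterone group (P, 4 animals) 1 mg progesterone, and the E+P group (5 animals) both at these doses. In the last group (E+P CFP, 3 animals) both hormones were given at the same doses and the tissue was the mammary fat pad without its epithelium. The labels do not give the mouse strain, the age or how the fat pads were freed of epithelium. The design text states that lymph nodes were removed at collection. Each animal was measured on 3 array types, which makes 60 arrays.

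White adipocytes take up fatty acids that lipoprotein lipase releases from circulating lipoproteins, store them as triglyceride in a single large droplet, and release them again when catecholamines activate lipolysis. The nuclear receptor PPAR-gamma and the factor C/EBP-alpha direct the formation of these cells and maintain their genes, and mature cells secrete adiponectin, leptin and resistin. In the mammary gland the adipocytes surround the epithelial ducts, and the hormone receptors that drive ductal growth are found in both epithelium and stroma. Because the arrays measured RNA of whole tissue, a lower signal can come from fewer adipocytes, from a larger share of RNA from other cells, or from less RNA per adipocyte, and these cannot be told apart.

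Signals are MAS5 values scaled to a common trimmed mean, in arbitrary units, and differences are between group means of log2 signal, given with their standard error (SE). Signals of different probe sets are not comparable as amounts. A gene is said to rise or fall only where limma's adjusted p (Benjamini-Hochberg over all 23062 tested probe sets) was below 0.05.

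The adipocyte identity of the tissue was plain in every group. Adiponectin (Adipoq) gave between 6380 and 12725 units over the 20 animals, and Lpl, Pnpla2, Car3, Retn and Agpat2 were in no animal below the 3349 units that Lpl had in E+P 2. The fat pads matched their label: 19 of 22 luminal epithelial markers were measured, their summed signal was 592 to 640 in the 3 fat pads against 8609 to 13019 in E+P glands, and Cldn7, Epcam, Krt19, Krt7, Krt8 and Spint1 were at the floor in all 3. Some animals stood apart. V 4 had a summed signal of 16 of 18 lymphocyte markers at the top of a V range of 586 to 5308, and E 1 was at the top of an E range of 850 to 5717 for 15 of 16 skeletal muscle markers. The muscle markers summed to 6225 to 10517 in the fat pads, 975 to 2045 in E+P and 1128 to 2926 in V. The ratio of the Gapdh 3′ to 5′ control signals on array A, which rises as RNA degrades, was 3.69 in V 4 and 4.39 in E+P CFP 1, and the group medians lay between 1.49 and 2.36. These 3 animals are left out together in an alternative given beside the results it changes.

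Promoter sequences are shown for 5 members that between them show the main patterns across the groups: Lep, whose lowest group was vehicle, Pparg and Cd36, which had the largest differences between fat pads and glands, Adipor2, which fell with both hormones, and Adipoq, the defining adipocyte hormone. Each is the 250 bases before a transcription start in RefSeq (GRCm38.p6), 5′ to 3′ on the gene's strand, with matches to 3 motifs, searched on both strands, in capitals: the nuclear receptor hexamer AGGTCA, the C/EBP core TTGCNNAA and the TATA box TATAAA.
Lep, chr6:29059971-29060220, plus strand: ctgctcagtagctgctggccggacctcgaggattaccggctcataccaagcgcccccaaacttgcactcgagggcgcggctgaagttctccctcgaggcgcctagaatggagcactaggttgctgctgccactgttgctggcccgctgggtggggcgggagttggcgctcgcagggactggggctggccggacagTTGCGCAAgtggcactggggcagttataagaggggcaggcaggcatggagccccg
Pparg, chr6:115421816-115422065, plus strand: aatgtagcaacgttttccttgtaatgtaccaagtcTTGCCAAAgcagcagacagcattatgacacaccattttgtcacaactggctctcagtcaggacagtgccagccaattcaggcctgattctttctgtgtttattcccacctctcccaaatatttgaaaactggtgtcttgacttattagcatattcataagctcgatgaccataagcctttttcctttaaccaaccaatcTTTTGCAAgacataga
Cd36, chr5:17835897-17836146, minus strand: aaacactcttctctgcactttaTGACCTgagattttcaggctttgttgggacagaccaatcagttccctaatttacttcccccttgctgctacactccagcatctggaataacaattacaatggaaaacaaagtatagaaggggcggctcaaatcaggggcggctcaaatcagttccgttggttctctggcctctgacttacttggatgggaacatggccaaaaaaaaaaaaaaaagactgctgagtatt
Adipor2, chr6:119388735-119388984, minus strand: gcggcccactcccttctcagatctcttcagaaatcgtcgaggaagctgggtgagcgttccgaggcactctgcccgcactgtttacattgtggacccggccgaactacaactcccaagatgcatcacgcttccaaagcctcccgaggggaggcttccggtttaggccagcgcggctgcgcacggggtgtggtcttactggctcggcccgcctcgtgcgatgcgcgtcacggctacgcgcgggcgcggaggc
Adipoq, chr16:23146286-23146535, plus strand: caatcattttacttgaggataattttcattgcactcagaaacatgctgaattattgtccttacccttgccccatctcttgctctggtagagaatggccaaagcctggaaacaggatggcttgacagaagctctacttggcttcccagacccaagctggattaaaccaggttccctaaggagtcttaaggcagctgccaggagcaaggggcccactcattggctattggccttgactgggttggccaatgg

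The Lep promoter held a C/EBP core at -55 to -48 from the start, which reads the same on both strands. The Pparg promoter shown, 1 of 3 with an entry for that gene, held 2 C/EBP cores, at -215 to -208 and at -16 to -9. The Pparg promoters not shown each held a receptor hexamer, at -28 to -23 and at -9 to -4, and 1 also held a TATA box at -29 to -24. The Cd36 promoter held a receptor hexamer on its other strand at -228 to -223. No match was found in the Adipor2 and Adipoq windows. Promoter entries existed for 24 of the 36 genes, with 34 promoters in all. A C/EBP core was found in 7 of these 34 (20.6%) against 9.56% of all 32851 promoters, in Aldh1a1, Cav2, Cidec, Lep, Plin1, Pparg and Rbp4. The hexamer was found in 6 of 34 (17.6%) against 14.0%, and the TATA box in 4 (11.8%) against 12.4%. Full elements were found in none of the 34: the direct repeat bound by PPAR and RXR, found in 0.033% of all promoters, the palindromic estrogen response element, in 0.064%, and the progesterone and glucocorticoid response element, in 0.387%. These matches are descriptions of letters in short windows.

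**Figure D1:**
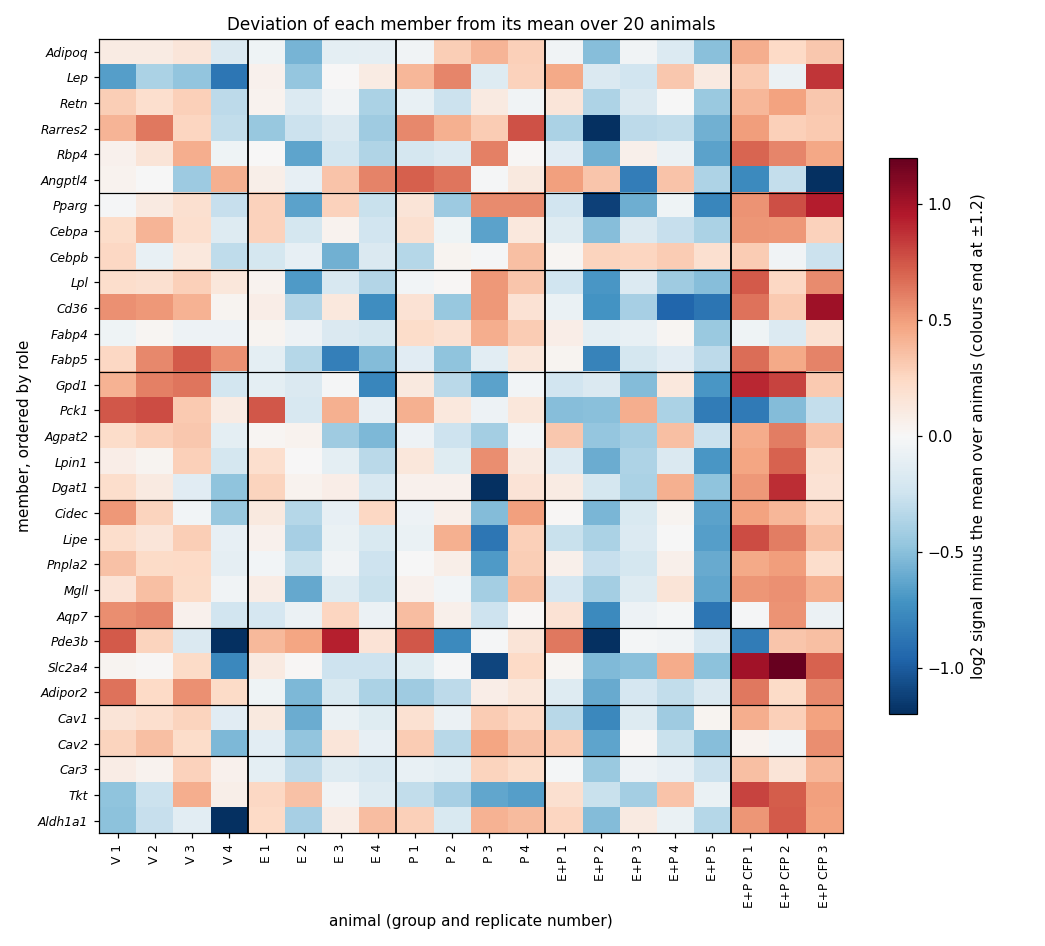
Log2 signal of the 31 measured genes (vertical axis, ordered by role and separated by thin lines) in each of the 20 animals (horizontal axis, by group), as the deviation from the gene's mean over all animals. Red is above and blue below that mean, and the colours end at a deviation of 1.2; the 3 fat pads are red for most genes, E+P 2 and E+P 5 are blue for most, and V is the lowest group for Lep and Aldh1a1.

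The heat map of deviations shows the members moving largely as a block, with a few that follow another order. The mean deviation over the 31 genes was between 0.33 and 0.39 in the 3 fat pads, above every intact gland. It lay between -0.51 and 0.0049 in E+P, between -0.26 and 0.064 in E, between -0.070 and 0.20 in P and between -0.24 and 0.21 in V. The lowest value in V was that of V 4, and the other 3 V animals lay between 0.19 and 0.21. Each gene was correlated with the mean of the other members after group means were removed. As a description over 20 animals that share arrays and scaling, this correlation was highest for Retn (r = 0.83), Mgll (0.78) and Cidec (0.75). It was near 0 for Cebpb (0.12), Tkt (0.12) and Angptl4 (-0.097).

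The first comparison asks what estrogen alone did to the adipocyte genes of the gland. E glands had less Fabp5, a fatty acid binding protein of adipocytes, macrophages and endothelium, and no other member passed the test in either direction. That is 1 of 31 measured members lower, against 0.131% of all tested genes lower and 0.204% called in either direction. Fabp5 gave 626, 782, 877 and 771 units in the 4 V animals and 486, 416, 298 and 366 in the 4 E animals, so every E animal was below every V animal. The difference was -0.98 ± 0.17 (SE; 1.97-fold lower, limma adjusted p = 0.0193). Of the 31 members, 24 had a negative difference, with a median of -0.26 against -0.00022 over all genes. Adipor2, Lpl and Car3 also lay wholly below V in the E animals, which makes 4 members with Fabp5, against 4.42% of all genes, but none of these 3 passed (limma adjusted p = 0.0673, 0.204 and 0.298). Each of these 3 also has a second tested probe set, on which E overlapped V. For Adipor2 it gave 606 to 755 units in E and 530 to 782 in V. For Lpl the ranges were 708 to 1071 and 713 to 1020, and for Car3 874 to 1224 and 676 to 1178. The Fabp5 call was lost when V 2, V 3, E 3 or E 4 was left out (limma adjusted p = 0.0658, 0.0877, 0.0716 and 0.0736). With the lymphocyte marker score in the model its difference was -0.81 with a limma adjusted p of 0.219: the summed lymphocyte markers were 3158 to 11303 in E and 586 to 5308 in V, and their part in the result was not tested further. The Gapdh ratio also separated the groups, at 1.24 to 1.72 in E and 1.97 to 3.69 in V, and with it in the model the call was lost (-0.97, limma adjusted p = 0.0812). The 14 endothelial markers summed to 3843 to 4683 in E, wholly below 5189 to 6496 in V, with 2 of 14 called lower, and 2 of 5 brown adipocyte markers were called lower (summed signal 361 to 462 against 940 to 1284). Their part was not tested. Without V 4, E 1 and E+P CFP 1 together, Adipor2 was called besides Fabp5, which makes 2.

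Progesterone alone gave no call among the 31 members, and none among the 12232 genes (0%). At an unadjusted p below 0.05, 7 members and 7.6% of all genes passed limma's test. The members had a median difference of -0.088 against 0.0039 over all genes, and 18 of 31 were negative, against 49.4% of all genes. Leptin (Lep), the adipocyte hormone that signals energy stores to the brain, had the smallest adjusted p: 491, 597, 559 and 425 units in V and 1021, 1165, 698 and 941 in P. All P animals were above all V animals, and the difference was 0.87 ± 0.20 (limma adjusted p = 0.236). Fabp4, the adipocyte fatty acid binding protein, was the other member wholly above V, with 383 to 405 units in V and 454 to 538 in P (0.32 ± 0.12, limma adjusted p = 0.489). These 2 members above V compare with 1.68% of all genes. The 2 members wholly below V, against 2.21% of all genes, were Fabp5 (-0.68 ± 0.17, limma adjusted p = 0.305) and Adipor2 (-0.55 ± 0.15, limma adjusted p = 0.387). On the second probe set of Adipor2 the groups overlapped, at 576 to 857 units in P and 530 to 782 in V.

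Glands given both hormones were lower in Fabp5 and Adipor2, the adiponectin receptor that acts through PPAR-alpha and fatty acid oxidation in liver and is also made by adipocytes. These were 2 of 31 members, both lower, against 0.319% of all genes lower and 0.646% in either direction. Fabp5 gave 537, 302, 454, 478 and 424 units in the 5 E+P animals, all below V, with a difference of -0.81 ± 0.17 (limma adjusted p = 0.0308). Adipor2 gave 2338, 1757, 2174 and 1745 units in V and 1336, 977, 1291, 1212 and 1322 in E+P, again with no overlap, and differed by -0.70 ± 0.15 (1.63-fold lower, limma adjusted p = 0.0345). Cd36, the fatty acid translocase, had the largest difference of the set, -0.99 ± 0.22, and just missed the threshold (limma adjusted p = 0.0514). Its signals were 351, 344, 320 and 246 units in V and 227, 146, 182, 124 and 131 in E+P. In all, 26 of 31 members had a negative difference (83.9%, against 47.4% of all genes), with a median of -0.37 against 0.019. Wholly below V were 5 members, Fabp5, Adipor2, Cd36, Lpl and Car3, against 2.32% of all genes, and only Lep lay wholly above, against 3.09%. The second probe set of Lpl overlapped V (689 to 1360 units in E+P, 713 to 1020 in V), as did that of Car3 (784 to 1326, and 676 to 1178).

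Neither call with both hormones was independent of single animals. Fabp5 was lost without V 2, V 3, V 4, E+P 2, E+P 3 or E+P 5 (limma adjusted p = 0.0911, 0.130, 0.0520, 0.106, 0.0508 and 0.0680). Adipor2 was lost without V 1, V 2, V 3, E+P 2, E+P 3, E+P 4 or E+P 5 (limma adjusted p = 0.110, 0.0632, 0.130, 0.113, 0.0533, 0.0512 and 0.0606). The count of calls over these fits was 0 to 3. Without V 4, E 1 and E+P CFP 1 together Fabp5 was lost (limma adjusted p = 0.0650), and the 2 members called were Adipor2 and Rarres2. The second probe set of Adipor2, on array B, differed from V by -0.04 ± 0.15 (limma adjusted p = 0.967), so the 2 probe sets disagree on this fall. The luminal markers summed to 6559 to 9439 in V and 8609 to 13019 in E+P, and the 14 endothelial markers to 5189 to 6496 in V and 3108 to 4673 in E+P. Fabp5, Cd36 and the caveolins are also made by endothelium. The part of either list in these differences was not tested.

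Set against the single hormones, E+P gave 1 call among the members. Against E, no member was called (0.229% of all genes were), and 3 members and 10.6% of all genes passed an unadjusted p below 0.05 in limma's test. The median was -0.12 against 0.018 over all genes. Cebpb, a factor that acts early in adipocyte formation, was the 1 member wholly above E, against 2.89% of all genes: 515, 556, 399 and 526 units in E, and 603, 713, 711, 733 and 679 in E+P (0.47 ± 0.15, limma adjusted p = 0.273). Against P, the E+P glands were lower in Rarres2, which encodes the adipokine chemerin. That is 1 of 31, against 0.123% of all genes lower and 0.507% in either direction. In this comparison 26 of 31 members had a negative difference, against 48.5% of all genes, with a median of -0.25 against 0.011. At an unadjusted p below 0.05, 11 members passed limma's test, as did 11.4% of all tested probe sets. The share of all genes is not given. Rarres2 gave 1216, 1100, 1009 and 1389 units in P and 630, 337, 656, 668 and 550 in E+P, so the lowest P animal was well above the highest E+P animal, and the difference was -1.08 ± 0.19 (2.12-fold lower, limma adjusted p = 0.0138). This call held when any 1 of the 20 animals was left out (limma adjusted p up to 0.0429) and was lost when only the compared groups were fitted (0.0671) or with the replicate number as a block (0.0559). The luminal markers summed to 5583 to 6844 in P, wholly below 8609 to 13019 in E+P, with 5 of 19 called higher in E+P, and their part was not tested. Lpl, Lpin1 and Fabp4 were also wholly below P, 4 members with Rarres2 against 1.55% of all genes, with limma adjusted p = 0.0774, 0.133 and 0.132. The other tested probe sets of Lpl and Lpin1 overlapped P. The interaction of the hormones, which asks whether their joint effect differs from the sum of the single ones, called no member (0.0736% of all genes). At an unadjusted p below 0.05 limma's test passed 5 members and 11.7% of all genes, with Fabp5 first (0.84 ± 0.24, limma adjusted p = 0.187).

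**Figure D2:**
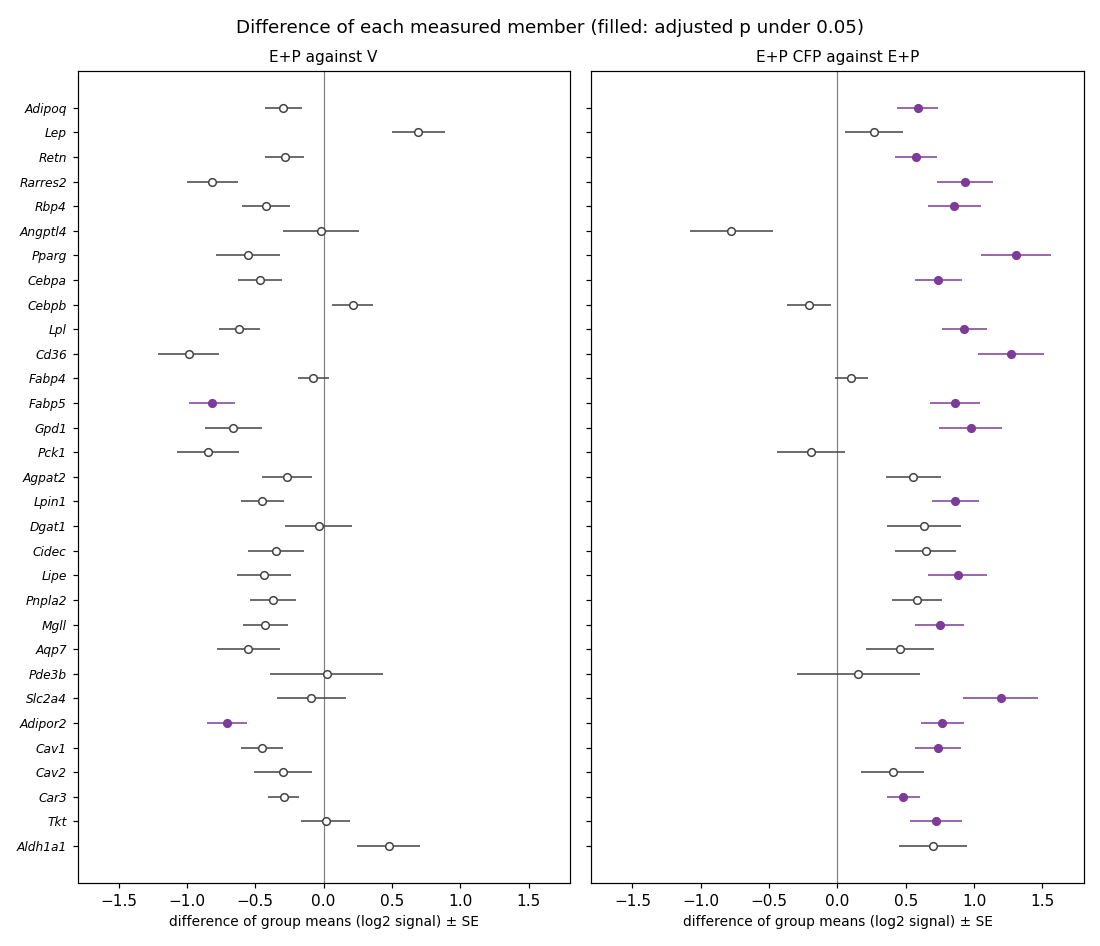
Difference in mean log2 signal for each of the 31 measured genes between E+P and V glands (left) and between E+P fat pads and E+P glands (right); bars are ± SE and filled points have a limma adjusted p below 0.05. On the left 26 genes lie below 0 and 2 are filled, and on the right 28 lie above 0 and 18 are filled.

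The fat pad comparison asks how the members stand in stroma alone against the whole gland under the same hormones. In fat pads 18 of 31 members were higher than in E+P glands and none was lower, against 3.54% of all genes higher and 10.4% called in either direction. The largest differences were those of Pparg, Cd36 and Slc2a4, at 1.30, 1.27 and 1.19 on the log2 scale. In all, 28 of 31 members had a positive difference, against 47.5% of all genes, with a median of 0.70 against -0.025 over all genes. The 3 fat pads lay wholly above the 5 glands in 21 members, against 7.88% of all genes. The 13 members without a call include Fabp4, Lep, Pde3b and Cebpb, and Angptl4 had the most negative difference.

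The size of this difference moves with the scaling and with the animals. Scaling arrays to a common median shifts the median of all probe sets by 0.12, and gave 23 calls, all higher, while quantile normalization gave 13, all higher. Leaving out E+P CFP 1 gave 10 calls, E+P CFP 2 gave 14, and the other single animals gave 16 to 20, with 17 higher and 1 lower without E+P 3. A negative difference was seen in 3 members, and in 1 under median scaling. Without V 4, E 1 and E+P CFP 1 together 14 were called. The shares of all genes called under these settings are not given, so whether the shifts are particular to the members cannot be told. Of the 18, Lpl, Cd36, Pparg, Lpin1, Adipor2, Fabp5, Rarres2, Cav1 and Rbp4 kept their call without any 1 animal. Lost without E+P CFP 1 were Adipoq (0.0885), Car3 (0.0824), Cebpa (0.0538), Gpd1 (0.0734), Lipe (0.0865), Mgll (0.0511), Retn (0.0823) and Tkt (0.119), with the limma adjusted p in parentheses. Without E+P CFP 2, Slc2a4, Gpd1, Retn and Tkt were lost (limma adjusted p = 0.0502, 0.0502, 0.0920 and 0.0779), and without E+P CFP 3, Car3 was (0.0778). Retn was also lost without E+P 2 or E+P 5 (limma adjusted p = 0.0593 and 0.0635), and Tkt without E+P 2 or E+P 3 (0.0566 and 0.0599).

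Other cell types move with this comparison. Besides the luminal markers, the endothelial markers (14 of 14 measured, none at the floor) summed to 4948 to 6196 in fat pads against 3108 to 4673 in E+P glands, and the brown adipocyte markers (5 of 9) to 605 to 664 against 442 to 1212, with Ucp1 at the floor in all fat pads. The muscle markers did not overlap between these groups. With the muscle score in the model no member was called, and the median difference of the members was 0.49. That score was 1.95 to 2.69 in fat pads and -0.88 to 0.020 in E+P, so this fit cannot tell muscle from tissue. Slc2a4, Car3, Lpl and Cd36 are also made by skeletal muscle. E 1, a single animal under another treatment, had a muscle score of 1.84. It had 651 units of Slc2a4, 7224 of Car3 and 5607 of Lpl, each the highest of the E group. Its Cd36 signal of 255 was below the 262 of E 3. All 4 signals were below those of every fat pad. E 1 also had the highest mean deviation over all members in the E group (0.064, the other E animals -0.26 to -0.040). Being highest in E was thus not particular to the genes named here. The part of muscle, endothelium and epithelium in the difference was not tested further.

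Against vehicle glands the fat pads of hormone-treated animals differed less. Aldh1a1, Slc2a4 and Lep were higher and Pck1 was lower, 3 and 1 of 31, against 0.826% of all genes higher, 3.26% lower and 4.09% in either direction. The median difference was 0.29 against -0.0085, with 28 of 31 positive, against 49.1% of all genes. Wholly above V were 12 members, against 6.75% of all genes, and Pck1 alone was wholly below, against 8.81%. Fabp5 and Adipor2, lower in E+P glands, were at vehicle level in the fat pads (0.05 ± 0.19 and 0.06 ± 0.17). This comparison differs in hormones and in tissue together, and it shares its fat pads or its V animals with the comparisons above. The animals of the calls each matter: without E+P CFP 2 only 1 call was made, without V 3 there were 5, and without V 4, E 1 and E+P CFP 1 together there was none.

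**Figure D3:**
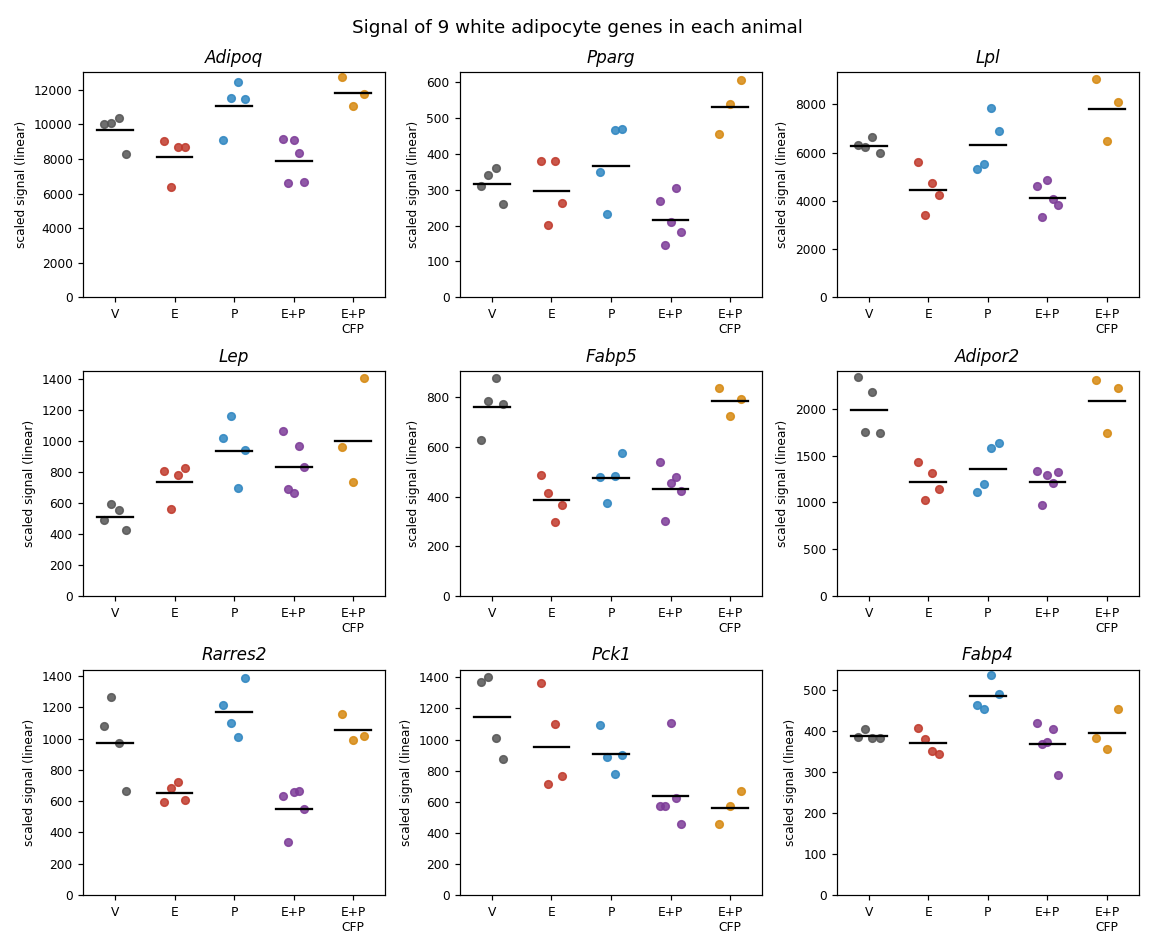
Scaled signal (linear axis from 0) of 9 members in each animal, by group; points are animals and the black line is the geometric mean of the group. Fabp5 and Adipor2 are high in V and E+P CFP and lower in the other 3 groups, Lep is lowest in V, Rarres2 is lower in E and E+P than in P, and Pck1 is low in E+P CFP.

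Among the 6 measured secreted factors, 4 were higher in fat pads than in E+P glands: Adipoq, Retn, Rarres2 and Rbp4. Adipoq, the insulin-sensitizing hormone made by adipocytes, gave 12725, 11090 and 11769 units in fat pads and 9150, 6592, 9102, 8367 and 6648 in E+P, with no overlap (0.59 ± 0.15, limma adjusted p = 0.0153). In V it gave 10036, 10093, 10377 and 8315, in E 9044, 6380, 8677 and 8709, and in P 9126, 11549, 12465 and 11479. The P animals reached the fat pad range and all but 1 lay above every V animal, yet the difference from V was 0.20 ± 0.14 (limma adjusted p = 0.767). The Adipoq promoter shown above held none of the 3 motifs.

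Retn encodes resistin, an adipocyte hormone of mice. It gave 8040, 8520 and 7638 units in fat pads, above all other animals: 6744, 4702, 5405, 6066 and 4464 in E+P, and 4899 to 7457 in V. Its difference from E+P was 0.57 ± 0.15 (limma adjusted p = 0.0234). E (4677 to 6251) and P (5095 to 6578) lay in the same range as E+P. A second Retn probe set, on array B, gave 332 to 518 units in fat pads, overlapping E+P (68 to 365) and P (334 to 448). On it the fat pads differed from E+P by 0.86 ± 0.41 (limma adjusted p = 0.233).

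Rarres2 gave 1157, 994 and 1015 units in fat pads (0.93 ± 0.20 against E+P, limma adjusted p = 0.00543). In E it gave 598, 684, 724 and 607, close to E+P. In V it gave 1081, 1264, 975 and 666, so apart from V 4 the V, P and fat pad animals all lay between 975 and 1389. The difference of E from V was -0.58 ± 0.20 and that of E+P from V -0.81 ± 0.19, neither past the threshold (limma adjusted p = 0.239 and 0.0564).

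Lep kept a different order from the other secreted factors. The fat pads gave 966, 737 and 1407 units and the E+P glands 1067, 691, 664, 971 and 836, which overlap (0.27 ± 0.21, limma adjusted p = 0.536). Against V the fat pads were higher by 0.96 ± 0.22 (1.95-fold, limma adjusted p = 0.0144), with no overlap. The E+P glands were also all above V (0.69 ± 0.19, limma adjusted p = 0.130), and E, with 807, 564, 780 and 830 units, overlapped V in E 2. The call against V was lost without V 4 or E+P CFP 3 (limma adjusted p = 0.05002 and 0.110). V 4 had the lowest Lep signal of all 20 animals. A second Lep probe set, with 34 to 255 units in V and 518 to 566 in fat pads, was also higher against V (2.60 ± 0.63, limma adjusted p = 0.0227).

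Rbp4, the plasma carrier of retinol, gave 2544, 2339 and 2149 units in fat pads and 1420, 1046, 1633, 1490 and 1003 in E+P (0.85 ± 0.19, limma adjusted p = 0.00719). Angptl4, a secreted inhibitor of lipoprotein lipase, was dim and went the other way: 50, 69 and 34 units in fat pads against 47 to 119 in E+P (-0.78 ± 0.30, limma adjusted p = 0.136). Its other 2 tested probe sets were lower in fat pads than in V (-0.86 ± 0.20 and -1.08 ± 0.25, limma adjusted p = 0.0175 and 0.0159), where the representative one gave -0.79 ± 0.32 (limma adjusted p = 0.238).

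Of the 3 transcription factors, Pparg and Cebpa were higher in fat pads and Cebpb was not called. Pparg, the master regulator of adipocyte formation, gave 456, 540 and 605 units in fat pads against 268, 145, 210, 304 and 183 in E+P, with no overlap. The difference of 1.30 ± 0.26 (2.47-fold, limma adjusted p = 0.00228) was the largest of all members in that comparison. The other groups lay between, at 260 to 359 in V, 202 to 381 in E and 232 to 468 in P, and the fat pads were wholly above V too (0.75 ± 0.27, limma adjusted p = 0.170). Cebpa, which sustains the mature adipocyte state, gave 5063, 5030 and 4241 units in fat pads and 3157, 2465, 3102, 2903 and 2701 in E+P (0.74 ± 0.17, limma adjusted p = 0.00869). In V it gave 3153 to 4642, in E 2985 to 4240 and in P 2243 to 4007. Cebpb gave 735, 576 and 496 units in fat pads, overlapping E+P (-0.21 ± 0.16, limma adjusted p = 0.538).

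Among the genes of fatty acid uptake and binding, Lpl, Cd36 and Fabp5 were higher in fat pads than in E+P glands, 3 of 4, and Fabp4 was not called. Lipoprotein lipase, Lpl, had the smallest adjusted p of the set: 9060, 6491 and 8092 units in fat pads and 4604, 3349, 4847, 4061 and 3835 in E+P (0.93 ± 0.16, 1.90-fold, limma adjusted p = 0.000831). In V it gave 6296, 6230, 6649 and 5996, a narrow range, in E 5607, 3406, 4757 and 4261, all below V, and in P 5312, 5513, 7828 and 6881, on both sides of V. The E+P glands were wholly below V (-0.62 ± 0.15, limma adjusted p = 0.0817). A second Lpl probe set was not called in fat pads against E+P (0.63 ± 0.20, limma adjusted p = 0.0679). It was higher in fat pads than in V (0.87 ± 0.21, limma adjusted p = 0.0262), where the representative one was not called (0.31 ± 0.17, limma adjusted p = 0.442). In E+P against V the second one had the opposite sign (0.24 ± 0.19, limma adjusted p = 0.723).

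Cd36 gave 378, 300 and 486 units in fat pads (1.27 ± 0.24 against E+P, limma adjusted p = 0.00178), near its V range of 246 to 351. In E it gave 255, 188, 262 and 144 and in P 271, 175, 345 and 272. Its promoter, shown above, was 1 of the 6 with a receptor hexamer. Fabp5 gave 838, 723 and 793 units in fat pads (0.86 ± 0.18 against E+P, limma adjusted p = 0.00400) and 480, 376, 483 and 577 in P. All 13 hormone-treated intact glands were thus below all 4 V glands and all 3 fat pads in Fabp5, though P was not called against V. The share of all genes with this order is not given. Fabp4, in contrast, gave 384, 356 and 454 units in fat pads and 421, 368, 374, 405 and 293 in E+P (0.10 ± 0.12, limma adjusted p = 0.717), and its highest group was P.

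Triglyceride assembly had 2 of 5 measured members higher in fat pads than in E+P glands. Gpd1, which makes glycerol 3-phosphate, gave 6277, 5912 and 4181 units in fat pads and 2873, 2975, 2350, 3668 and 2077 in E+P, with V at 4501, 5109, 5252 and 2884 (0.97 ± 0.23, limma adjusted p = 0.00974). A second, dim probe set of Gpd1 had the opposite sign (-0.11 ± 0.28, limma adjusted p = 0.880). Lpin1, the phosphatidate phosphatase lipin 1, gave 642, 756 and 529 against 413, 305, 356, 408 and 285 (0.86 ± 0.17, limma adjusted p = 0.00284). Its other tested probe sets had the same sign without a call (0.75 ± 0.28 and 0.75 ± 0.67, limma adjusted p = 0.117 and 0.591). Agpat2 and Dgat1, which add the second and the last acyl chain, differed by 0.55 ± 0.20 and 0.63 ± 0.27 (limma adjusted p = 0.10 and 0.178).

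Pck1, which feeds glyceroneogenesis in adipocytes, departed from most of the set in the fat pads. It gave 1372, 1403, 1012 and 874 units in V, 1366, 715, 1098 and 764 in E, 1095, 889, 781 and 899 in P, 574, 575, 1105, 627 and 457 in E+P, and 454, 571 and 668 in fat pads. The fat pads lay wholly below V (-1.03 ± 0.26, 2.05-fold lower, limma adjusted p = 0.0285) and did not differ detectably from E+P (-0.19 ± 0.25, limma adjusted p = 0.741). The E+P glands differed from V by -0.84 ± 0.23 (limma adjusted p = 0.117), with E+P 3 inside the V range. The call against V was lost without V 1, V 2, E+P CFP 1 or E+P CFP 2 (limma adjusted p = 0.0922, 0.0899, 0.171 and 0.0778) and under median scaling.

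Of 5 measured genes of the lipid droplet and lipolysis, Lipe and Mgll were higher in fat pads than in E+P glands. Lipe, hormone-sensitive lipase, gave 3774, 3348 and 2805 units in fat pads and 1816, 1686, 1952, 2187 and 1387 in E+P (0.88 ± 0.22, limma adjusted p = 0.0128). V gave 2537, 2417, 2688 and 2045, E 2274, 1666, 2074 and 1925, and P, the most variable group, 2073, 2948, 1199 and 2666. Mgll, monoglyceride lipase, gave 1977, 1994 and 1841 in fat pads and 1190, 1031, 1230, 1522 and 885 in E+P (0.75 ± 0.18, limma adjusted p = 0.0108). Pnpla2, the triglyceride lipase that acts before Lipe, and Cidec, a droplet-fusion protein, were also wholly above E+P in fat pads, without a call (0.58 ± 0.18 and 0.65 ± 0.22, limma adjusted p = 0.0567 and 0.0870). The glycerol channel Aqp7 was dim, at 111 to 170 units in fat pads and 64 to 132 in E+P (0.46 ± 0.25, limma adjusted p = 0.318).

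Slc2a4 encodes GLUT4, the insulin-responsive glucose transporter of fat and muscle. It gave 1215, 1411 and 984 units in fat pads and, in the 17 intact glands, 281 to 821, so no gland reached the fat pads. It was higher than in E+P by 1.19 ± 0.27 (limma adjusted p = 0.00799) and than in V by 1.10 ± 0.29 (limma adjusted p = 0.0363). The call against V was lost without V 1, V 2, V 4, E+P CFP 1 or E+P CFP 2 (limma adjusted p = 0.0573, 0.0586, 0.120, 0.125 and 0.153). Adipor2 gave 2310, 1743 and 2226 units in fat pads (0.77 ± 0.16 against E+P, limma adjusted p = 0.00367), 1436, 1023, 1313 and 1141 in E and 1110, 1199, 1576 and 1630 in P. As for Fabp5, each of the 13 treated glands was below each V gland and each fat pad, but neither E nor P was called against V for Adipor2. The share of all genes with this order is not given. The second probe set of Adipor2 overlapped V (530 to 782 units) in E (606 to 755), P (576 to 857) and E+P (531 to 734). Its second probe set differed by 0.33 ± 0.17 in fat pads against E+P (limma adjusted p = 0.274). Pde3b, the phosphodiesterase through which insulin restrains lipolysis, spread widely within groups, with 190 to 1054 units in V, and its representative probe set was not called (0.15 ± 0.45, limma adjusted p = 0.900). 2 other probe sets of Pde3b were higher in fat pads than in E+P (0.72 ± 0.22 and 0.78 ± 0.16, limma adjusted p = 0.0403 and 0.00242), and the remaining one gave -0.45 ± 0.37.

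The caveolae that cover the adipocyte surface are built from caveolins. Cav1 was higher in fat pads (3467, 3122 and 3586 units) than in E+P (2028, 1495, 2294, 1908 and 2623), by 0.74 ± 0.17 (limma adjusted p = 0.00726), whereas Cav2 overlapped (0.41 ± 0.23, limma adjusted p = 0.344). A second, dim probe set of Cav1, at 14 to 34 units in fat pads, had the opposite sign (-0.86 ± 0.55, limma adjusted p = 0.420). Of the other enzymes, carbonic anhydrase 3 (Car3) gave 10022, 8705 and 10308 units in fat pads and 7682, 5745, 7490, 7305 and 6533 in E+P (0.48 ± 0.12, limma adjusted p = 0.0165), and transketolase (Tkt), an enzyme of the pentose phosphate pathway, 11217, 10594 and 9043 against 7313, 5324, 4840, 8112 and 6076 (0.72 ± 0.19, limma adjusted p = 0.0228).

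Aldh1a1, a retinaldehyde dehydrogenase, was lowest in vehicle glands, as Lep was. It gave 178, 207, 230 and 91 units in V, 297, 191, 268 and 324 in E, 307, 222, 336 and 326 in P, 300, 175, 272, 238 and 198 in E+P, and 362, 418 and 352 in fat pads. The fat pads were above every gland and above V by 1.18 ± 0.26 (2.26-fold, limma adjusted p = 0.0125). The call was lost without E+P CFP 2 (limma adjusted p = 0.0634). The second probe set of Aldh1a1, with 7 to 28 units in fat pads, gave -0.82 ± 0.35 (limma adjusted p = 0.282).

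**Figure D4:**
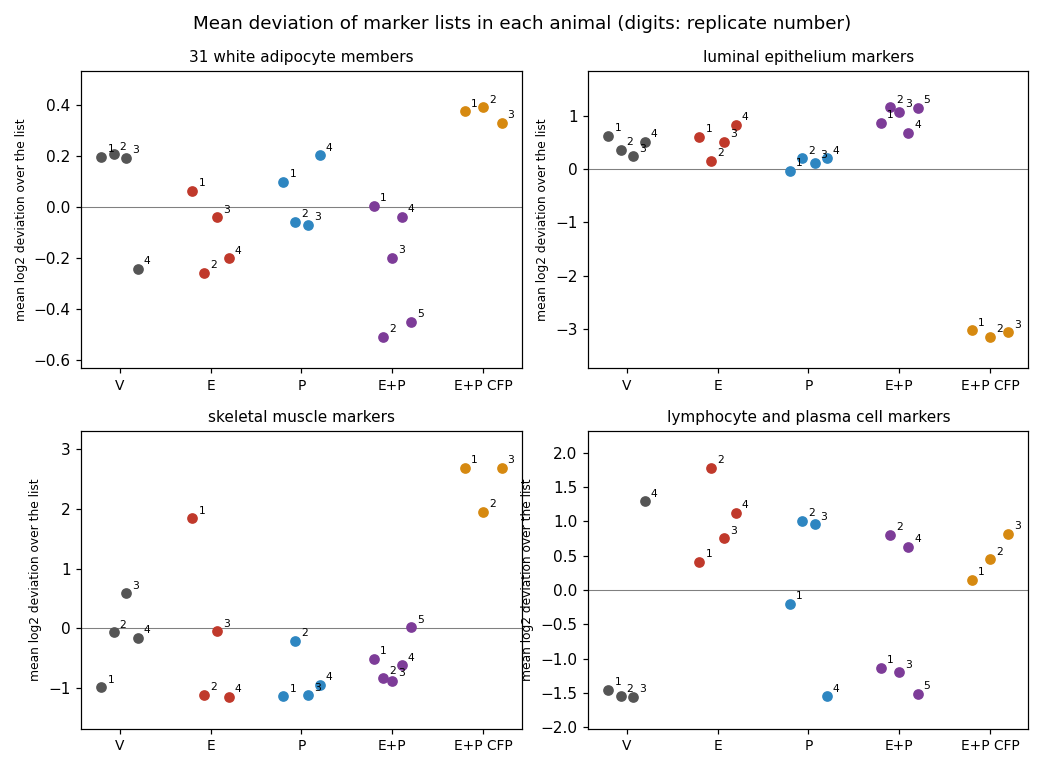
Mean log2 deviation from the average over 20 animals for the 31 members and for 3 lists of markers of other cell types, by group; each point is an animal, with its replicate number. The fat pads are lowest for luminal markers and highest for muscle markers, V 4 stands apart from V 1 to V 3 for members and lymphocyte markers, and E+P 2 and E+P 5 are lowest for the members.

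The plot of list means by animal sets the members beside markers of other cells. E+P 2 and E+P 5 had the lowest member means (-0.51 and -0.45) and the highest luminal means (1.16 and 1.15). V 4, with -0.24 for the members, had a lymphocyte mean of 1.29 against -1.56 to -1.46 in V 1 to V 3. Whether the share of other cells sets these member means was not tested.

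Other genes of fat metabolism, from lists that hold none of the members, moved in part with them. In fat pads against E+P glands 9 of 18 measured genes of fatty acid synthesis and its control were higher, against 3.54% of all genes, and none lower, with a median of 0.65: the synthesis enzymes Acly (1.52 ± 0.33, limma adjusted p = 0.00488) and Fasn (0.53 ± 0.11, limma adjusted p = 0.00289), the desaturase Scd2 (0.92 ± 0.18), the regulators Srebf1 (0.84 ± 0.16), Mlxipl (0.98 ± 0.24), Thrsp (0.63 ± 0.15) and Insig1 (1.27 ± 0.29), and Elovl5 and Slc25a1. Against V, 3 of 18 were higher, Scd2, Mlxipl and Srebf1, against 0.826% of all genes. Of 18 measured genes of triglyceride assembly and the droplet 6 were higher than in E+P, against the same 3.54%, and none lower. They were the acyltransferases Gpat3 (1.47 ± 0.20, limma adjusted p = 2.22e-05), Gpam (1.53 ± 0.21, limma adjusted p = 4.01e-05) and Agpat3, the caveolar protein Cavin2, and the droplet genes Fitm2 and Plin2. Gpat3 was also the only gene of that list called with both hormones against V, where it was lower (-0.97 ± 0.18, limma adjusted p = 0.0148), and Gpam was higher in fat pads than in V (0.89 ± 0.22, limma adjusted p = 0.0225). Each was 1 of 18, against 0.319% of all genes lower and 0.826% higher in these comparisons.

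Of 21 measured regulators of adipocyte formation, Klf15 and Zfp423 were higher in fat pads than in E+P (1.08 ± 0.19 and 1.10 ± 0.21, limma adjusted p = 0.000606 and 0.00128). Gata3 and Klf5 were lower (-4.60 ± 0.28 and -2.37 ± 0.34, limma adjusted p = 2.28e-10 and 7.75e-05), and both are also made by luminal epithelium. These 4 of 21 (19.0%) compare with 10.4% of all genes called in either direction. Egr2 was higher in E+P than in V (1.81 ± 0.31, limma adjusted p = 0.00930) and than in P (1.52 ± 0.31, limma adjusted p = 0.0388), and also higher in fat pads than in V (1.43 ± 0.35, limma adjusted p = 0.0268). In E+P against V and against P it was the only 1 of 21 called, against 0.646% and 0.507% of all genes. Gata3 and Klf5 were lower in fat pads than in V as well (-4.03 ± 0.29 and -1.51 ± 0.35, limma adjusted p = 4.34e-09 and 0.0176). With Egr2 this made 3 of 21 (14.3%) called in fat pads against V, where 4.09% of all genes were. Of 13 measured genes of insulin and adrenergic signalling only Akt2 was called, higher in fat pads (0.98 ± 0.22, limma adjusted p = 0.00726). Of 14 measured genes of fatty acid oxidation, Acads was higher (1.04 ± 0.26, limma adjusted p = 0.0143) and Cpt1a lower (-1.13 ± 0.18, limma adjusted p = 0.000294), and Cpt1a was lower against V too (-1.29 ± 0.19, limma adjusted p = 0.000184). These shares, 1 of 13 (7.69%) and 2 of 14 (14.3%), are near the 10.4% of all genes called in fat pads against E+P.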

How the data were processed

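The values are the authors' deposited MAS5 intensity signals of 20 mice on 3 Affymetrix array types (the A, B and C arrays of the MG-U74 set), named per the submitters' processing notes. Arrays of 1 animal were joined by group and replicate number in the titles. Genes were named from the platform annotation: of 36899 probe sets, 29131 had 1 gene symbol, 724 several and 6846 none. The 198 control probe sets were dropped, each array was scaled to a common 2% trimmed mean, and low values were raised to that array type's 25th percentile (13.6, 28.6 and 19.8 units). Log2 values were kept where over the 50th percentile (61.6, 85.7 and 61.8 units) in at least 3 animals. limma 3.58.1 (R 4.3.3) fitted 5 group means per array type, with eBayes and an intensity trend, and p-values were adjusted by Benjamini-Hochberg over 23062 probe sets. A gene's representative probe set was on array A before B before C, without a special suffix, and the brightest. The number of arrays limits the precision.

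The members and lists were chosen with earlier results of these data known. Values per animal, or a group's lowest and highest, are given for members called in any comparison, for those with the 3 smallest adjusted p in each, and for the hallmark genes Adipoq, Lep, Retn, Pparg, Cebpa, Fabp4, Fabp5, Lpl, Cd36 and Lipe. Pathway genes are named where called. The summed signals of 8 lists of cell markers are given. The script was tested on simulated data, with 100 probe sets changed 2-fold in each comparison of 2 groups. Of these, 27 were called in fat pads against V, 37 in P against V and 47 to 53 in the others. A missing call therefore does not show that a gene was unchanged. Same-numbered animals of different groups did not deviate together: none of 36 pairs correlated above 0.1 (median r = 0.014). The labels call the samples biologic replicates. The description of the vehicle samples names progesterone, while their titles and treatment give sesame oil, which was followed. Alternatives to the scaling, floor, filter, variance model, samples, block and covariates were run.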

Additional observations from a re-analysis of the deposited data

Results flagged for a closer look

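In 9 of 128 groups of 4 or 5 animals examined, for the members and their mean, the highest or lowest animal lay far from the others by Dixon's criterion; chance gives about 1 in 20. In V, animal 4 was low for Adipoq (log2 signal 13.02, the others 13.29 to 13.34), Retn (12.26, the others 12.77 to 12.86), Cav2 (9.82, the others 10.58 to 10.72) and the mean over members (-0.24, the others 0.19 to 0.21). V 4 is also the vehicle animal with high lymphocyte markers and a high Gapdh ratio. Fabp4 was high in V 2 (8.66, the others 8.58 to 8.59), a small difference in a narrow group. E 2 was low for Adipoq (12.64, the others 13.08 to 13.14) and Lep (9.14, the others 9.61 to 9.70). P 3 was low for Dgat1 (8.31, the others 9.59 to 9.70), and E+P 2 was low for Rarres2 (8.40, the others 9.10 to 9.38).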

How the results depend on the processing

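None of the 26 calls of members changed direction under the 18 alternative settings or with any of the 20 animals left out, 10 kept their call without each animal, and none was kept under every setting. The number of members called was as follows where it moved by over 1.5 times. For E against V (1) it was 0 without the filter on dim probe sets, with the compared groups only, and with the Gapdh ratio or the lymphocyte score in the model, 3 with array weights, and 2 with the replicate number as a block or without V 4, E 1 and E+P CFP 1. For E+P against V (2) it was 4 with median scaling, a floor at the 40th percentile, a filter at the 75th, array weights or the lymphocyte score, and 0 without the filter, without the intensity trend, with the compared groups only or with the muscle score. For E+P against P (1) it was 0 with the compared groups only or the replicate block, 2 with the Gapdh ratio and 3 with the lymphocyte score. For fat pads against E+P (18) it was 0 with the muscle score. For fat pads against V (4) it was 2 without the filter or with the compared groups only, and 0 without the 3 animals or with the muscle score. With 1 animal left out the counts ranged over 0 to 2 (E against V), 0 to 3 (E+P against V), 1 (E+P against P), 10 to 20 (fat pads against E+P) and 1 to 5 (fat pads against V). The causes were not tested, and the shares of all genes called under each setting are not given. Under the replicate block, 15 members were called in fat pads against E+P, and the numbers do not pair the animals (5 of 20 animals correlated best with one of their own number). No representative probe set of a member was at the floor in any animal.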

Other observations

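The brown adipocyte markers, of which 5 of 9 were measured, followed another order than the white adipocyte genes. Their summed signal was 940 to 1284 units in V, 361 to 462 in E, 638 to 734 in P, 442 to 1212 in E+P and 605 to 664 in fat pads, so every E animal was below every V animal and no marker but Ucp1 in fat pads was at the floor in a whole group. The basal and myoepithelial markers (8 of 12) summed to 1753 to 2536 in fat pads, 2889 to 3993 in E+P and 2159 to 3761 in V. The fibroblast and preadipocyte markers (11 of 14) summed to 11244 to 14884 in fat pads and 10325 to 20556 in E+P, and the macrophage markers (10 of 12) to 4310 to 4721 and 3418 to 4950, both overlapping.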
